A study of Mus musculus with 10 samples.

Results

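Expression of 10 genes that sense unfolded protein in the endoplasmic reticulum (ER) or act on it was followed across cultured mouse cortical neurons with and without the transcription factor ATF4. The genes were Ern1, Atf6 and Xbp1 of the sensing arm, Herpud1, Edem1, Sel1l and Syvn1 of the degradation arm, and the ER-resident factors Dnajb9, Sdf2l1 and Creld2. They were named for their roles, with earlier results of these data known. Each was read from its brightest probe set with a single gene symbol, and all 10 were found among the 22180 genes tested. The neurons were dissected from cortex of embryos at day 14.5 to 15.5 and treated on day 7 in culture for 12 hours. Wildtype neurons received vehicle (2 arrays) or 5 µM sodium arsenite, a thiol-reactive form of trivalent arsenic (4 arrays), and neurons labelled ATF4 deficient received vehicle (2 arrays) or the same arsenite dose (2 arrays). The labels give no strain, do not say which part of Atf4 was removed, and call the samples biological replicates without saying whether litters or cultures were separate, so every p-value reflects the spread between these samples alone, which may be technical.

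Secreted and membrane proteins fold in the ER. When unfolded protein builds up there, the membrane sensors IRE1, PERK and ATF6 start the unfolded protein response. IRE1, the product of Ern1, splices Xbp1 mRNA so that it encodes an active transcription factor, ATF6 is cut in the Golgi to release another one, and PERK phosphorylates the translation factor eIF2α, which raises translation of ATF4. The same phosphorylation can come from other kinases, a convergence called the integrated stress response. Proteins that cannot be folded are passed back to the cytosol and destroyed by the proteasome, a route called ER-associated degradation. Neurons make large amounts of membrane and secreted protein and depend on this machinery. Xbp1 was read from 1 probe set, so its spliced and unspliced forms are not told apart. Neither cleavage of ATF6 nor phosphorylation of IRE1 is measured by these arrays.

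The promoters differ in the response elements that a letter search found. RefSeq promoter windows (GRCm38.p6, 250 bases before to 50 after the start) were matched for 9 of the 10 genes, Atf6 being the exception. Both strands were searched for the ER stress response element ERSE, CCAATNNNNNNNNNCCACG, its relative ERSE-II, ATTGGNCCACG, the core of the unfolded protein response element UPRE, TGACGTGG, and the core of the C/EBP-ATF composite element CARE, TGATGNAA, which ATF4 is known to bind with a C/EBP partner. Herpud1 held a CARE core and an ERSE-II, Creld2 and Syvn1 each held an ERSE, and Xbp1, Ern1, Edem1, Sel1l, Dnajb9 and Sdf2l1 held none of the 4 in this window. Of 32851 mouse windows of this length, 0.119% held an ERSE, 0.0365% an ERSE-II, 0.676% a UPRE core and 3.97% a CARE core. Of the 51 windows with either ERSE form, 1, that of Herpud1, also held a CARE core, beside the 3.97% of all windows that hold one. In Herpud1 the CARE core reads TTGCATCA on the printed strand, its match being on the opposite strand, from -112 to -105, and the ERSE-II ATTGGGCCACG runs from -52 to -42. Creld2 has its ERSE on the opposite strand, printed as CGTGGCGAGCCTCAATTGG from -126 to -108, and Syvn1 has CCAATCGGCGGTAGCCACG from -44 to -26. The measured responses of the 3 genes with a match are described below, and their 250 upstream bases are printed. They lie at chr8:94386179-94386428, chr15:88819396-88819645 and chr19:6046326-6046575, all on the plus strand, with the matches in capitals. A match is a description of letters and not a measured binding site.
Herpud1: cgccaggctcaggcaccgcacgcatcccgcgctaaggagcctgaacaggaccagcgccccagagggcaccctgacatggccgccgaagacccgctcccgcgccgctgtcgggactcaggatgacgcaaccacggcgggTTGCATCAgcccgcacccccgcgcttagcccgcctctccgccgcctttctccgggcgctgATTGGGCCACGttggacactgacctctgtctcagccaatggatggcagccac
Creld2: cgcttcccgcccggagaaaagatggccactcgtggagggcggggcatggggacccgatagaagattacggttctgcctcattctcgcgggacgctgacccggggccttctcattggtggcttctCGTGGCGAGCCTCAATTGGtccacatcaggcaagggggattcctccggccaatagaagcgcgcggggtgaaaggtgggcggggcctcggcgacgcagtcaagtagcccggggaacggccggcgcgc
Syvn1: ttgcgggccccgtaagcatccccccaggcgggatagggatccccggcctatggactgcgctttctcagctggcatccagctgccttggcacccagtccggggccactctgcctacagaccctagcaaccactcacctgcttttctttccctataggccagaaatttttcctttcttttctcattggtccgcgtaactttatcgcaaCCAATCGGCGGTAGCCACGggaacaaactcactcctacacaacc

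All values below are log2 expression values, and differences between groups are on the same scale. As a reference for dim signal, 90% of 1394 olfactory and vomeronasal receptor genes had means below 6.63, and 61.0% of all genes lay above that level. All 10 genes lay above it, between the 60.7th percentile of gene means for Sdf2l1 and the 95.2nd for Sel1l. Edem1 alone had a second probe set, at a mean of 5.92 and so under the dim reference, which was not used. A group difference was called where limma's adjusted p over all 22180 genes was under 0.05.

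The arrays carried the labelled cell type and genotype. All 8 neuron markers lay above the dim reference, with a list mean of 10.87 to 11.11 on every array. Atf4 averaged 9.32 ± 0.34 (SD, n = 2) in wildtype vehicle, 9.69 ± 0.21 (SD, n = 4) in wildtype arsenite, 7.57 ± 0.12 (SD, n = 2) in ATF4-deficient vehicle and 7.62 ± 0.11 (SD, n = 2) in ATF4-deficient arsenite arrays. On the leading principal component, the remaining 9 arrays scored -18.2 to 8.70 and replicate 2 of the ATF4-deficient arsenite group scored 29.4, so calls that rest on it are also given without it. Astrocyte markers differed with genotype: the mean of the 9-gene list was 8.23 to 8.47 in wildtype vehicle, 7.63 to 8.18 in wildtype arsenite, 7.22 to 7.61 in ATF4-deficient vehicle and 7.14 to 7.50 in ATF4-deficient arsenite arrays. Of these markers 8 of 9 lay above the dim reference and S100b lay below it. Oligodendrocyte lineage markers ran in the same order of groups, from 7.71 to 7.90 in wildtype vehicle down to 7.07 to 7.29 in ATF4-deficient arsenite arrays. In whole cultures, fewer cells of a type and less RNA per cell cannot be told apart.

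Herpud1 was the one of the 10 genes called in a comparison of single groups. It encodes a stress-induced membrane protein of the ER with a ubiquitin-like domain, which assembles with the degradation ligase. Its values were 9.18 and 9.53 in wildtype vehicle arrays, 9.98, 10.29, 9.97 and 10.24 in wildtype arsenite arrays, and, for ATF4-deficient neurons, 9.44 and 9.10 in vehicle arrays and 9.39 and 8.98 in arsenite arrays. The 4 wildtype arsenite arrays were the highest of all 10 and overlapped no other group, while the other 3 groups overlapped one another.

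Under arsenite, Herpud1 was lower in ATF4-deficient than in wildtype neurons by a difference of -0.93 (SE 0.16, 95% interval -1.28 to -0.59, limma, adjusted p = 0.0371), a 1.91-fold lower level. Among all genes, 0.0721% were called higher and 0.271% lower in this comparison. Under vehicle the same genotype difference was -0.08 (SE 0.18, 95% interval -0.49 to 0.32, adjusted p = 0.923). The call under arsenite rested on few arrays: without ATF4-deficient arsenite replicate 2 the difference was -0.73 (adjusted p = 0.275), and without replicate 1 it was -1.14 (adjusted p = 0.0699). Leaving out any 1 of the 4 wildtype arsenite arrays also ended the call, at -0.98 (adjusted p = 0.0584), -0.88 (0.0892), -0.99 (0.0677) and -0.89 (0.103) without replicates 1 to 4, and it held without each of the 4 vehicle arrays. The astrocyte list was lower in the ATF4-deficient arsenite arrays too (median difference of its 9 genes -0.56, with 1 of 9, Sox9, called lower, and 0 without ATF4-deficient arsenite replicate 2), as was the oligodendrocyte lineage marker Olig2 (-1.03, not called without that array). Their part in the Herpud1 difference was not tested.

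Arsenite in wildtype neurons gave Herpud1 a difference of 0.77 (SE 0.16, 95% interval 0.42 to 1.11), which did not pass over all genes (limma, adjusted p = 0.0673). The groups did not overlap, which can arise by chance in groups this small. In ATF4-deficient neurons the arsenite difference was -0.08 (SE 0.18, 95% interval -0.48 to 0.32, adjusted p = 0.911). The difference between these responses, the interaction, was -0.85 (SE 0.24, 95% interval -1.38 to -0.32) and was not called (unadjusted p = 0.0047 in limma, adjusted p = 0.744). No gene at all was called for the interaction, 0% in either direction, with 1330 genes (6%) and 2 of the 10, Herpud1 and Edem1, at an unadjusted p under 0.05. By level, wildtype arsenite stood first, and the means of wildtype vehicle (9.35 ± 0.25, SD, n = 2), ATF4-deficient vehicle (9.27 ± 0.24) and ATF4-deficient arsenite (9.19 ± 0.29) differed by less than the spread of their arrays.

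**Figure D1:**
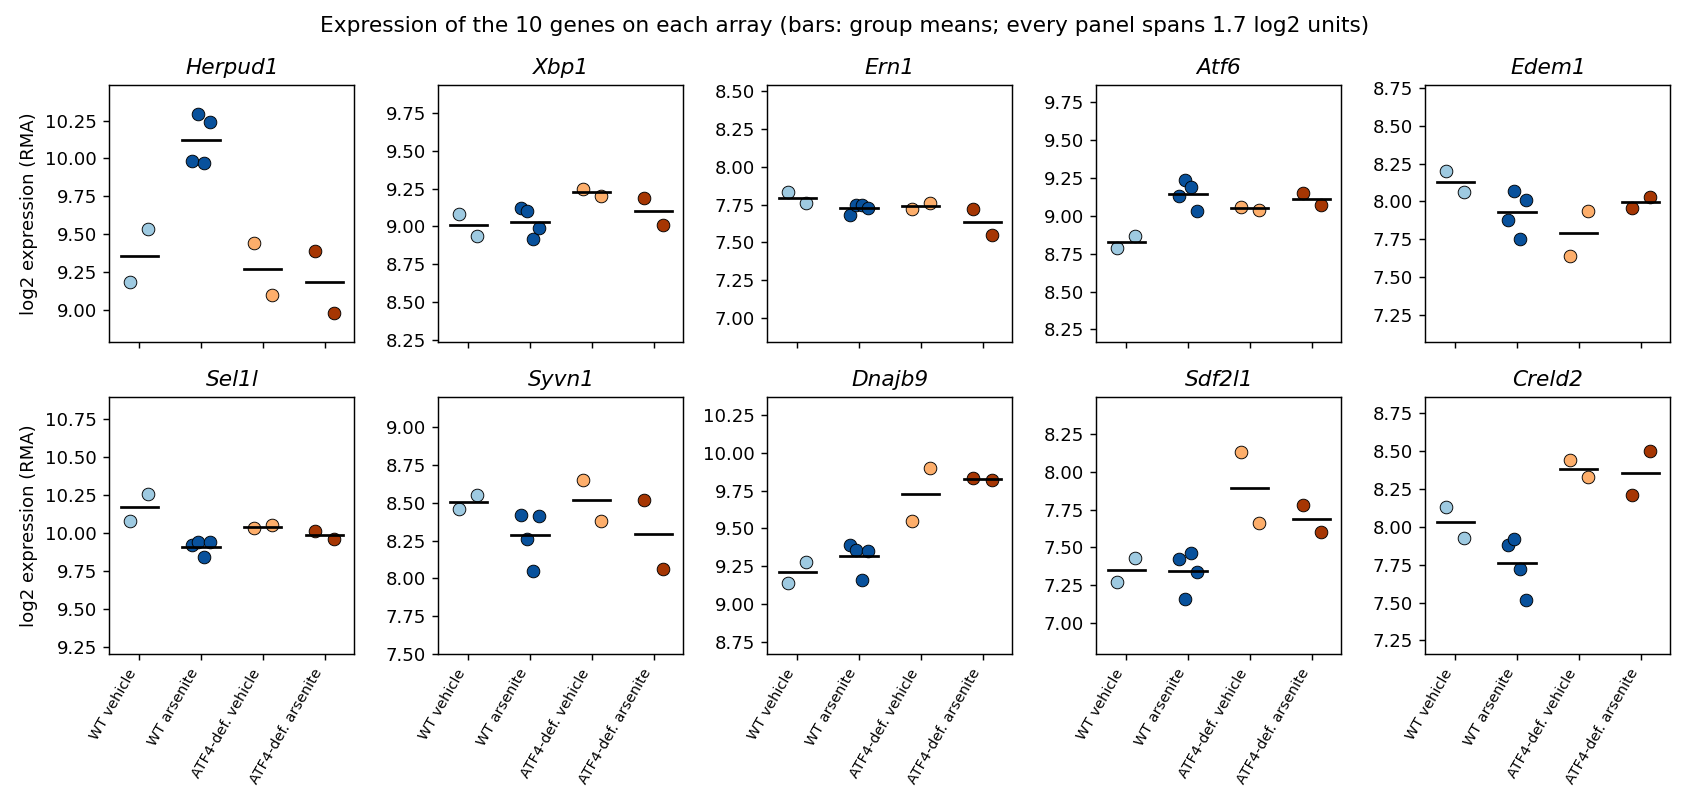
Expression of each of the 10 genes (log2 scale, vertical) on each array (points) in the 4 groups (horizontal), with group means as bars; every panel spans the same height on the log2 scale. For Herpud1 the 4 wildtype arsenite arrays, at 9.97 to 10.29, lie above the other 6, at 8.98 to 9.53; for Dnajb9, Sdf2l1 and Creld2 all ATF4-deficient arrays lie above all wildtype arrays.

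The ER-resident factors Dnajb9, Sdf2l1 and Creld2 ran the other way with genotype. Dnajb9 encodes ERdj4, a J-domain co-chaperone of the chaperone BiP that also restrains IRE1. Its values were 9.14 and 9.28 in wildtype vehicle, 9.39, 9.36, 9.16 and 9.35 in wildtype arsenite, and, for ATF4-deficient neurons, 9.55 and 9.90 in vehicle arrays and 9.83 and 9.82 in arsenite arrays. Every ATF4-deficient array lay above every wildtype array, and within each genotype the vehicle and arsenite arrays overlapped.

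The genotype difference in Dnajb9 was 0.52 under vehicle (SE 0.13, 95% interval 0.23 to 0.80, limma, adjusted p = 0.125) and 0.51 with arsenite present (SE 0.11, 95% interval 0.27 to 0.76, adjusted p = 0.102), and neither was called. Averaged over both treatments, a contrast added after these values were seen and made of the same arrays, it was 0.51 (SE 0.08, 95% interval 0.33 to 0.70, adjusted p = 0.0144), a 1.43-fold higher level. Leaving out wildtype vehicle replicate 1 (0.48, adjusted p = 0.0603) or 2 (0.55, 0.0633), ATF4-deficient vehicle replicate 2 (0.43, 0.0767) or ATF4-deficient arsenite replicate 2 (0.52, 0.053) ended that call.

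Creld2 encodes a cysteine-rich ER protein with EGF-like domains that is induced by ER stress. It read 8.13 and 7.93 in wildtype vehicle, 7.88, 7.92, 7.72 and 7.52 in wildtype arsenite, and, for ATF4-deficient neurons, 8.44 and 8.33 in vehicle arrays and 8.21 and 8.50 in arsenite arrays. The lowest ATF4-deficient array, at 8.21, thus lay above the highest wildtype array, at 8.13.

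For Creld2 the genotype difference was 0.35 under vehicle (SE 0.15, 95% interval 0.03 to 0.68, limma, adjusted p = 0.413) and 0.59 with arsenite present (SE 0.13, 95% interval 0.31 to 0.88, adjusted p = 0.102). In the average of both treatments it was 0.47 (SE 0.10, 95% interval 0.26 to 0.69, adjusted p = 0.0372), which was called. Leaving out wildtype vehicle replicate 1 (adjusted p = 0.0704) or 2 (0.188), wildtype arsenite replicate 3 (0.063), ATF4-deficient vehicle replicate 1 (0.0999) or 2 (0.13), or ATF4-deficient arsenite replicate 2 (0.128) ended the call, with differences of 0.40 to 0.52.

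Sdf2l1 encodes an ER protein that works with BiP and its J-domain partners to keep misfolded proteins soluble. It read 7.27 and 7.43 in wildtype vehicle, 7.42, 7.16, 7.46 and 7.34 in wildtype arsenite, and, for ATF4-deficient neurons, 8.13 and 7.66 in vehicle arrays and 7.78 and 7.60 in arsenite arrays. All ATF4-deficient values again lay above all wildtype values, the nearest being 7.60 and 7.46. The genotype difference was 0.55 under vehicle (SE 0.16, adjusted p = 0.184), 0.35 with arsenite present (SE 0.14, adjusted p = 0.333) and 0.45 on average (SE 0.10, 95% interval 0.22 to 0.68, adjusted p = 0.0569), none of which was called.

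Over all 10 arrays, 3 of the 10 genes were higher on every ATF4-deficient than on every wildtype array and 0 were lower, beside 1.23% of all genes higher and 1.49% lower. In the averaged genotype contrast, limma called 2 of the 10 higher and 0 lower, beside 0.582% of all genes called higher and 1.24% lower. At an unadjusted p under 0.05 this contrast held 4 of the 10 (Dnajb9, Sdf2l1 and Creld2 higher, Herpud1 lower) and 16.3% of all genes. Astrocyte markers ran against these genes, with 5 of 9 (Gfap, Aqp4, Slc1a3, Sox9 and Aldoc) called lower in the same contrast and a list median of -0.80. Other markers called in that contrast were Olig1, Olig2 and Pdgfra of the oligodendrocyte lineage (3 of 7 lower), the progenitor marker Sox2, the interneuron marker Dlx2 and the neuron marker Tubb3 (lower), and the neuron marker Nefl and the mural marker Rgs5 (higher). Without ATF4-deficient arsenite replicate 2, 3 of the 5 astrocyte calls and 1 of the 3 oligodendrocyte calls held, and the part of these markers in the result was not tested.

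Arsenite gave these factors no call. The differences in wildtype neurons were 0.10 (95% interval -0.14 to 0.35) for Dnajb9, -0.01 (-0.31 to 0.29) for Sdf2l1 and -0.27 (-0.55 to 0.01) for Creld2. In ATF4-deficient neurons they were 0.10 (-0.18 to 0.38), -0.21 (-0.55 to 0.14) and -0.03 (-0.36 to 0.30). All 6 intervals include 0, and they leave room for differences of up to 0.55 in size. Herpud1 and Creld2 both have an ERSE form in the printed promoters. Among the 10 genes they stood at opposite ends under arsenite, at -0.93 and 0.59 for genotype. For arsenite in wildtype neurons they stood at 0.77 and -0.27, and these comparisons share the wildtype arsenite arrays. The part of the ERSE forms was not tested.

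**Figure D2:**
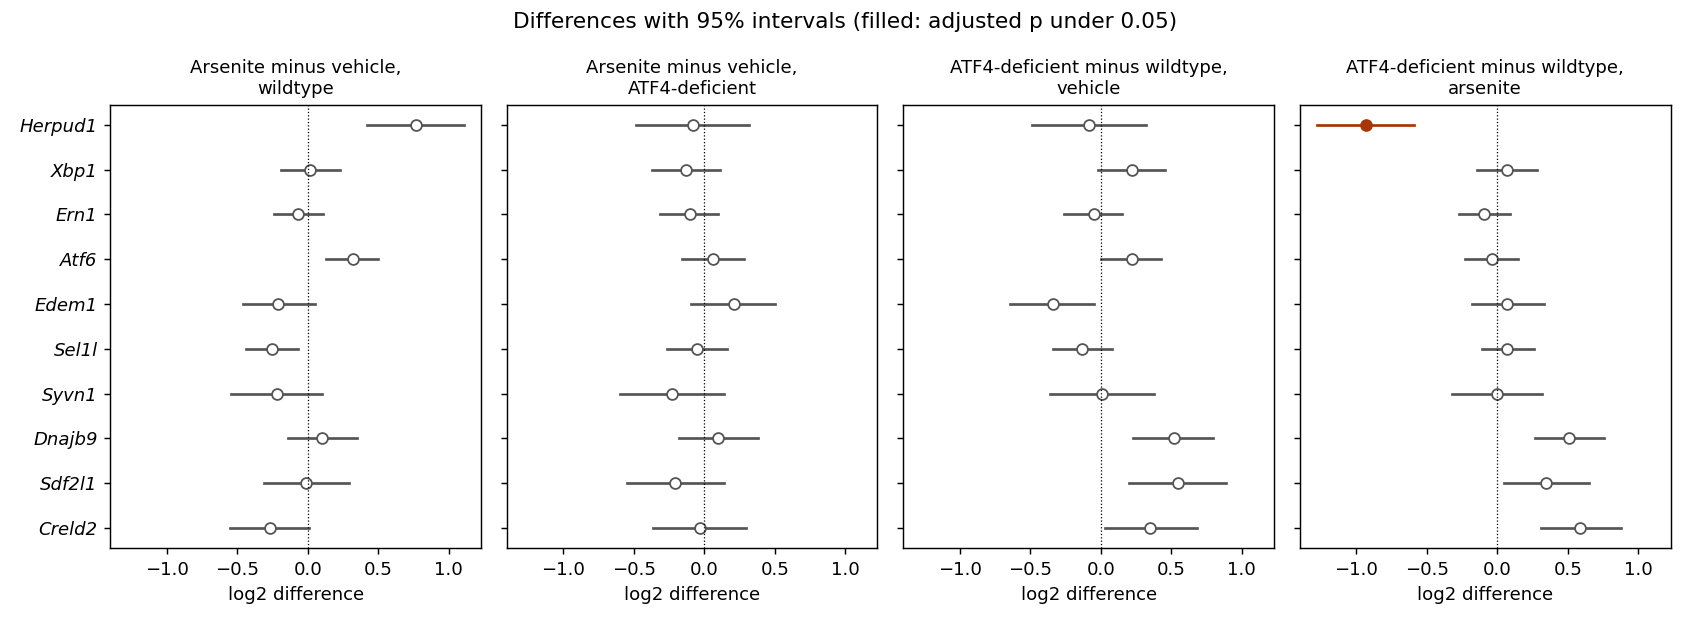
Log2 difference (horizontal) with its 95% interval for each of the 10 genes (vertical) in the 4 comparisons of single groups; a filled point has an adjusted p under 0.05 in limma. The filled point is Herpud1 for genotype under arsenite at -0.93, while Dnajb9, Sdf2l1 and Creld2 have intervals above 0 for genotype under both treatments with adjusted p of 0.102 to 0.413.

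None of the sensing genes was called in any of these comparisons. Ern1, which encodes the kinase and endonuclease IRE1, spanned a range of 7.55 to 7.83, with values of 7.83 and 7.76 in wildtype vehicle, 7.68, 7.75, 7.75 and 7.73 in wildtype arsenite, and, for ATF4-deficient neurons, 7.72 and 7.76 in vehicle arrays and 7.72 and 7.55 in arsenite arrays. Its differences lay between -0.10 and -0.05 in the 4 comparisons of single groups, and their intervals between -0.31 and 0.15.

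Xbp1, the transcription factor whose mRNA IRE1 splices, read 9.08 and 8.94 in wildtype vehicle, 9.12, 9.10, 8.92 and 8.99 in wildtype arsenite, and, for ATF4-deficient neurons, 9.25 and 9.20 in vehicle arrays and 9.19 and 9.01 in arsenite arrays. Its genotype difference under vehicle was 0.22 (95% interval -0.02 to 0.46, adjusted p = 0.516). The vehicle groups did not overlap, which can arise by chance in groups this small. Under arsenite the genotypes overlapped and differed by 0.07 (-0.14 to 0.28). Arsenite gave 0.02 in wildtype and -0.13 in ATF4-deficient neurons.

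Atf6, the sensor that is cut to release a transcription factor, read 8.79 and 8.87 in wildtype vehicle, 9.13, 9.24, 9.19 and 9.03 in wildtype arsenite, and, for ATF4-deficient neurons, 9.06 and 9.04 in vehicle arrays and 9.15 and 9.07 in arsenite arrays. The wildtype vehicle arrays were the lowest of all 10, which can arise by chance in groups this small. The share of all genes that separate in this way is not given here. The ATF4-deficient arsenite arrays lay above the ATF4-deficient vehicle arrays, by as little as 9.07 against 9.06. Both of these groups overlapped the wildtype arsenite arrays. Arsenite gave a difference of 0.32 in wildtype neurons (SE 0.09, 95% interval 0.13 to 0.50, limma, adjusted p = 0.171) and 0.06 in ATF4-deficient neurons (95% interval -0.16 to 0.28), and the interaction was -0.26 (-0.55 to 0.03, adjusted p = 0.842). Genotype gave 0.22 under vehicle (0.00 to 0.43, adjusted p = 0.461) and -0.04 under arsenite (-0.23 to 0.15).

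The degradation genes other than Herpud1 gave no call either. Syvn1 encodes HRD1, the membrane ubiquitin ligase at the centre of the pathway, and read 8.46 and 8.55 in wildtype vehicle, 8.42, 8.26, 8.05 and 8.41 in wildtype arsenite, and, for ATF4-deficient neurons, 8.65 and 8.38 in vehicle arrays and 8.52 and 8.06 in arsenite arrays. Arsenite gave differences of -0.22 (95% interval -0.54 to 0.10) in wildtype and -0.23 (-0.60 to 0.14) in ATF4-deficient neurons. Genotype gave 0.01 under vehicle and 0.00 under arsenite, with intervals of -0.36 to 0.38 and -0.32 to 0.32. Syvn1 and Creld2 both hold an ERSE. The genotypes overlapped for Syvn1 under both treatments and did not for Creld2. A difference between the genes was not tested, nor was any part of the ERSE.

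Sel1l, the adaptor that holds HRD1 and its substrates together, read 10.08 and 10.26 in wildtype vehicle, 9.92, 9.94, 9.84 and 9.94 in wildtype arsenite, and, for ATF4-deficient neurons, 10.03 and 10.05 in vehicle arrays and 10.01 and 9.96 in arsenite arrays. Each arsenite array lay below each vehicle array, by as little as 10.01 against 10.03. The share of all genes that separate by treatment in this way is not given here, and no Sel1l difference was called. The arsenite difference was -0.25 in wildtype neurons (SE 0.08, 95% interval -0.44 to -0.07, limma, adjusted p = 0.256), -0.05 in ATF4-deficient neurons (-0.26 to 0.16) and -0.15 on average (-0.29 to -0.01, adjusted p = 0.259).

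Edem1, a lectin-like protein that picks mannose-trimmed glycoproteins for degradation, read 8.20 and 8.06 in wildtype vehicle, 7.88, 8.07, 7.75 and 8.01 in wildtype arsenite, and, for ATF4-deficient neurons, 7.64 and 7.94 in vehicle arrays and 7.96 and 8.03 in arsenite arrays. The ATF4-deficient vehicle arrays lay below the wildtype vehicle arrays, with a difference of -0.34 (SE 0.13, 95% interval -0.64 to -0.05, limma, adjusted p = 0.367). Such a separation can arise by chance in groups this small. Under arsenite the genotype difference was 0.07 (-0.18 to 0.33). Arsenite gave -0.21 in wildtype and 0.21 in ATF4-deficient neurons, and the interaction was 0.42 (0.03 to 0.80, adjusted p = 0.828).

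Counted together, 0 of the 10 genes were called for arsenite in wildtype neurons (0.23% of all genes called higher, 0.252% lower), with 3 of the 10 and 10.9% of all genes at an unadjusted p under 0.05 in limma. For arsenite in ATF4-deficient neurons 0 were called (0.631% higher, 0.523% lower), with 0 of the 10 and 12% of all genes at an unadjusted p under 0.05. For genotype under vehicle 0 were called (0.18% higher, 0.252% lower), with 4 of the 10 and 10.9% of all genes at that level. Genotype under arsenite gave the 1 call of Herpud1, with 4 of the 10 and 12.1% at that level. Arsenite averaged over both genotypes, also added later, called 0 of the 10 (1.65% higher, 1.42% lower), with 3 of the 10 and 16.1% at that level. The median difference of the 10 genes was -0.04, -0.07, 0.11 and 0.07 in the 4 comparisons of single groups, beside -0.02, -0.01, 0.00 and 0.02 for all genes, and 4, 3, 6 and 7 of the 10 estimates lay above 0.

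The rest of the pathway was read from lists of related genes. Of 12 other sensors and processing enzymes, Eif2ak3, which encodes the sensor PERK, was called: it was higher in ATF4-deficient neurons by 0.65 under vehicle (SE 0.12, limma, adjusted p = 0.045) and by 0.75 with arsenite (SE 0.10, adjusted p = 0.012). The other 11 were not called in any comparison of single groups, among them Atf6b, a relative of Atf6, and Mbtps1 and Mbtps2, the proteases that cut ATF6. Averaged over both treatments, a contrast added later, Eif2ak3 was higher in ATF4-deficient neurons by 0.70 (SE 0.08, limma, adjusted p = 0.00268). Among all genes, 0.582% were called higher there, and the Eif2ak3 call held under 17 of 17 alternatives (0.62 to 0.77). The vehicle call of Eif2ak3 was lost under 11 of 17 alternatives, with differences from 0.50 to 0.80, and the arsenite call under 4, among them leaving out ATF4-deficient arsenite replicate 1 (0.77, adjusted p = 0.0785) or 2 (0.73, adjusted p = 0.136).

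Of 25 other degradation genes measured, among them the channel genes Derl1, Derl2 and Derl3 and the extracting ATPase gene Vcp, 0 were called in the 4 comparisons of single groups or the interaction. For genotype under arsenite, 17 of the 25 estimates were above 0, with a median of 0.11 and a range of -0.34 to 0.31. At an unadjusted p under 0.05 in limma, 4 were higher and 2 lower, beside 12.1% of all genes at that level. In the averaged arsenite contrast Aup1, which recruits a ubiquitin-conjugating enzyme to the degradation complex, was called lower (-0.32, SE 0.06, adjusted p = 0.0233), a call lost under 6 of 17 alternatives, among them leaving out ATF4-deficient arsenite replicate 2 (adjusted p = 0.0748).

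ER folding chaperones were called with genotype. Under arsenite, 3 of 18 were called higher in ATF4-deficient neurons, 0 lower and 15 not, beside 0.0721% of all genes called higher. They were Hsp90b1, the ER form of HSP90 (0.69, SE 0.09, adjusted p = 0.00918), the disulfide isomerase gene Pdia6 (0.61, SE 0.08, adjusted p = 0.0094) and Hspa5, which encodes BiP (0.53, SE 0.09, adjusted p = 0.0478). Estimates were above 0 for 17 of 18, with a median of 0.34 beside 0.02 for all genes. Under vehicle 0 were called, the median was 0.18, and 6 of 18 had an unadjusted p under 0.05, all higher, beside 10.9% of all genes. Without ATF4-deficient arsenite replicate 2 none of the 3 calls held (Hsp90b1 0.63 and Pdia6 0.56, each with adjusted p = 0.133, and Hspa5 0.58, adjusted p = 0.187). Without replicate 1 none held either, at adjusted p of 0.0601 for Hsp90b1 and Pdia6 and 0.15 for Hspa5. The Hspa5 call was the least firm, lost under 15 of 17 alternatives, against 3 for each of the others. In the averaged genotype contrast 5 of 18 were called higher, the 3 above with the co-chaperone gene Dnajc3 (0.59) and Hyou1 (0.54), a nucleotide exchange factor of BiP. Of these 5, Dnajc3 (adjusted p = 0.0534) and Hyou1 (0.0777) were not called without ATF4-deficient arsenite replicate 2.

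Of 21 genes of ER translocation, signal peptide cleavage and glycosylation, 0 were called in the 4 comparisons of single groups, and the median for genotype was 0.11 under both treatments. Stt3a, a catalytic subunit of the glycosylating complex, was called higher in the averaged genotype contrast (0.38), and the translocation gene Sec63 in the averaged arsenite contrast (0.35). The Sec63 call was lost under 13 of 17 alternatives and the Stt3a call under 6, both without ATF4-deficient arsenite replicate 2 (adjusted p = 0.165 and 0.0547). Of 5 known substrates of IRE1's decay activity, 0 were called in single groups. Sparc was called lower in the averaged genotype contrast (-0.38), beside 1.24% of all genes called lower. Its call was lost under 7 of 17 alternatives, among them leaving out ATF4-deficient arsenite replicate 2. The astrocyte list was lower in the same contrast (median -0.80), and its part in the Sparc difference was not tested.

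Genes of the integrated stress response, which include known ATF4 targets, were called with both arsenite and genotype. Arsenite in wildtype neurons called 5 of 16 higher and 0 lower, with a median of 0.63, beside 0.23% of all genes called higher. They were Slc7a11, the cystine importer (2.25), the stress regulator Sesn2 (1.34), Ddit3, which encodes CHOP (1.06), the folate enzyme gene Aldh1l2 (0.84) and the transcription factor gene Atf5 (0.58). Without wildtype vehicle replicate 1 none of the 5 held (adjusted p of 0.122 to 0.39), and over 17 alternatives Atf5 lost its call in 13, Sesn2 in 11, Aldh1l2 in 6, and Ddit3 and Slc7a11 in 2 each. In ATF4-deficient neurons it called 1 of 16 (Slc7a11, 1.43), with a median of -0.01, and that call was lost in 12 of 17 alternatives (0.74 to 1.78). For genotype under arsenite 7 of 16 were called lower, 0 higher, with a median of -0.84, beside 0.271% of all genes called lower. Without ATF4-deficient arsenite replicate 2 none of the 7 held (adjusted p of 0.0707 to 0.275), and without replicate 1 of that group 1 held. Under vehicle 1 was called lower (Aldh1l2, -1.09) with a median of -0.28, a call lost without wildtype vehicle replicate 2 or ATF4-deficient vehicle replicate 2. The averaged genotype contrast called 8 of 16 lower and 0 higher, beside 1.24% of all genes called lower. The averaged arsenite contrast called 3 of 16 higher and 0 lower, beside 1.65% called higher. All 17 alternatives kept Aldh1l2 and Slc7a11 for genotype, and Aldh1l2, Ddit3 and Slc7a11 for arsenite. The other averaged genotype calls were each lost under 3 to 9 alternatives. Herpud1, at 0.77 and -0.93, lay near the list medians for arsenite in wildtype neurons and for genotype under arsenite. Both comparisons share the wildtype arsenite arrays. For genotype under vehicle Herpud1 was at -0.08, beside the list median of -0.28. For Dnajb9, Sdf2l1 and Creld2 the genotype differences under arsenite, at 0.51, 0.35 and 0.59, lay near or above the chaperone median of 0.34. Under vehicle they were 0.52, 0.55 and 0.35, all above the chaperone median of 0.18.

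**Figure D3:**
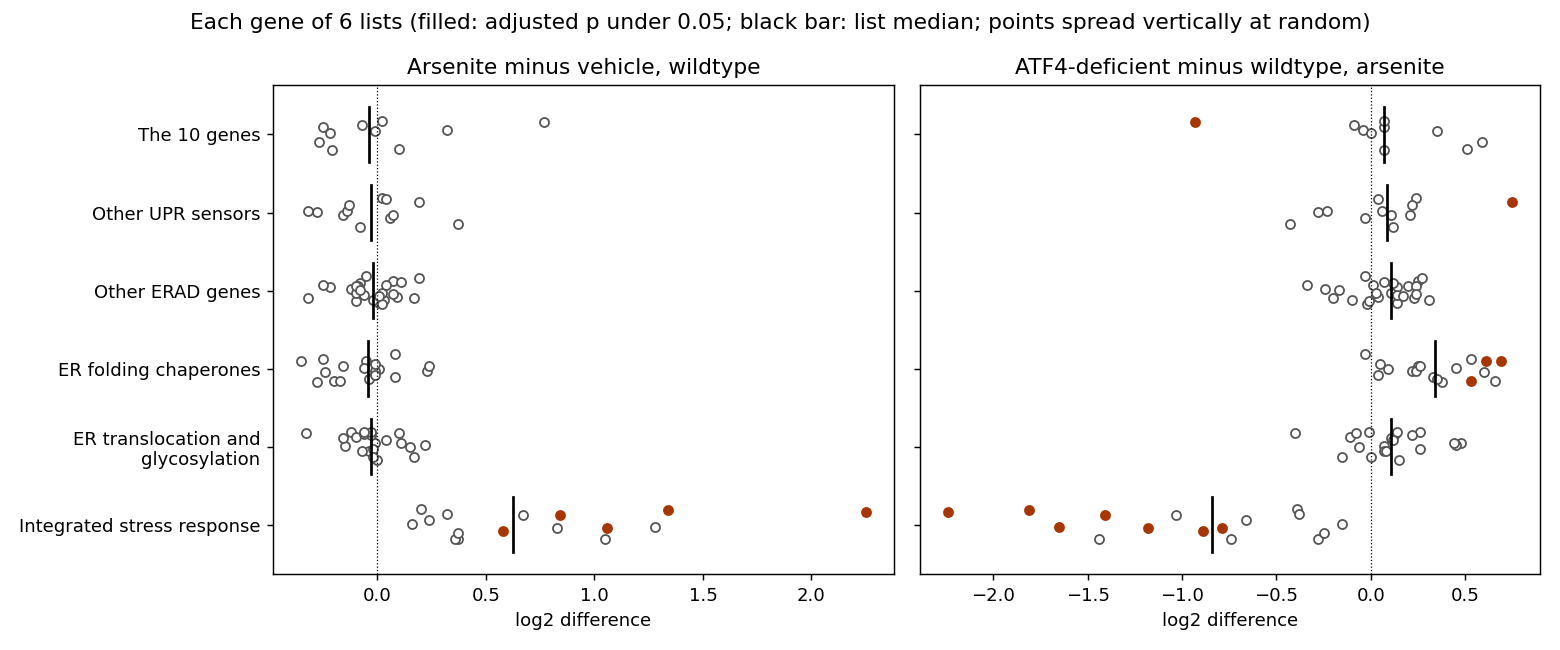
Log2 difference (horizontal) of each gene in 6 lists (vertical), for arsenite in wildtype neurons (left) and for genotype under arsenite (right); filled points have an adjusted p under 0.05 in limma, and black bars are list medians. On the right the 7 called stress response genes and Herpud1 lie below 0, and the 3 called chaperones and Eif2ak3 lie above 0.

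Likeness of profile was described by Pearson's r over the 10 arrays with the other 13523 genes above the dim reference, without a test, since the arrays share their groups and group differences alone can give a high r. Nearest to Herpud1 were B230209E15Rik (r = 0.977), Sesn2 (0.977) and the transcription factor gene Jdp2 (0.976). Dnajb9 was nearest to Eif2ak3 (0.967), Ubxn7 (0.958) and Lin7c (0.957). For Creld2 the nearest were Dusp5 (0.938), Hspa5 (0.922) and Pdia6 (0.921), and for Sdf2l1 Mroh6 (0.902), Lat (0.899) and Myrf (0.895). Those of the sensing genes were Rnf152 (0.964), Mest (0.912) and Pip5k1a (0.898) for Xbp1, Wars2 (0.94), Slc35b2 (0.939) and Nat8f1 (0.925) for Ern1, and Gpr139 (0.927), Gla (0.916) and Qpct (0.914) for Atf6. Among the degradation genes, Edem1 was nearest to Cnr1 (0.957), Arhgap21 (0.931) and Smc1a (0.914), Sel1l to Snd1 (0.973), Chst8 (0.946) and Rap1gap2 (0.927), and Syvn1 to Cbll1 (0.973), Dpysl2 (0.967) and Sap130 (0.965). None of the 10 genes was among the 3 nearest of another, and Dnajb9 and Creld2 had genes of the pathway lists among theirs, as did Herpud1.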

How the data were processed

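Total RNA was extracted with Trizol and labelled for Affymetrix whole-transcript mouse arrays, per the labels' protocols. The authors deposited log2 expression values, which the design text and the submitters' processing notes trace to Partek 6.6 and its robust multiarray average (RMA) method. RMA makes the array distributions alike, so a change shared by most genes would be removed. Scanner files were not used here.

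Of 41345 probe sets, 23521 had 1 gene symbol, and the brightest stood for each of 22180 genes; no filter was set on dim signal. All 10 arrays entered a group-means model in limma 3.58.1 (R 4.3.3), tested with eBayes, two-sided, with Benjamini-Hochberg adjustment over all genes and a threshold of 0.05; the fit was tested on simulated data. There were 5 contrasts, and 2 averages over treatment or genotype were added after the data were seen. All 10 genes are named in full, and from each pathway list the called genes. The 10 genes and the lists were chosen with earlier results of these data known. The number of arrays limits precision. Protein sequences were not used here. Alternatives were a dim-signal filter, averaged probe sets, equal array medians, array weights, a trended robust prior, all probe sets, a replicate block, only the compared groups, and each array left out.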

Additional observations from a re-analysis of the deposited data

Results flagged for a closer look

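Dnajb9 had an array apart within the wildtype arsenite group: replicate 3 read 9.16 and replicates 1, 2 and 4 read 9.35 to 9.39, so that the gap to its nearest neighbour was 0.835 of the group's range, above Dixon's 95% critical value for 4 arrays. Chance gives such a gap in about 1 in 20 groups, and the wildtype arsenite group was the only group with enough arrays for this rule. Without that array the Dnajb9 genotype difference averaged over treatments was 0.49 (limma, adjusted p = 0.0247), and it kept its call.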

How the results depend on the processing

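The number of arrays limits these results. Of 1230 alternative values for the 10 genes, 1145 kept their direction and side of the threshold, 5 gained a call, and 56 changed sign, all of them uncalled. The remaining 24 lost a call, which only values called in the main fit can do. These were Herpud1 for genotype under arsenite, lost under 10 of 18 alternatives, and Creld2 (9 of 17) and Dnajb9 (5 of 17) in averaged genotype. The call of Herpud1 for genotype under arsenite was lost with array weights (adjusted p = 0.0917), all probe sets (0.152) and only the compared groups (0.0707), beside the single arrays named above, over a range of 0.0225 to 0.275. Creld2 lost its averaged call with equal medians (0.0532) and all probe sets (0.123), and Dnajb9 with all probe sets (0.0747). The cause was not tested.

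Among the 10 genes, 1 was called for arsenite in wildtype neurons without dim genes and 1 with array weights (Herpud1 both times). For genotype under arsenite 0 were called with array weights, all probe sets or only the compared groups, and 0 to 1 with an array left out. The averaged genotype contrast called 4 without dim genes, 1 with equal medians, 0 with all probe sets and 0 to 2 with an array left out.

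Over all genes, arsenite in wildtype neurons gave 107 calls, 162 without dim genes, 186 with array weights, 20 with all probe sets, 11 with only the compared groups and 0 to 75 with an array left out; its split of 51 higher and 56 lower became 26 and 50 with equal medians. For arsenite in ATF4-deficient neurons 256 became 135 with array weights, 95 with all probe sets, 0 with only the compared groups and 50 to 200 with an array left out. Genotype under vehicle went from 96 to 193 without dim genes, 228 with array weights, 1 with all probe sets, 0 with only the compared groups and 0 to 99 with an array left out. Genotype under arsenite went from 76 to 40, 34 and 41 with array weights, all probe sets and only the compared groups, and 1 to 64 with an array left out. The averaged genotype contrast went from 404 to 70 with all probe sets and 58 to 377 with an array left out, and averaged arsenite from 682 to 410 and 242 to 654.

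Same-numbered arrays of different groups had correlations of deviations from -0.0555 to 0.403, not all above 0.1, and the labels name no shared litter or day, so the numbers were not taken to pair the arrays. With the replicate block, calls over all genes went to 17 for arsenite in wildtype neurons, 165 for genotype under vehicle and 4 for genotype under arsenite. Among the 10 genes the replicate block gave 0 for genotype under arsenite (Herpud1 -0.95, adjusted p = 0.131) and 1 in the averaged genotype contrast, where Creld2 was at 0.40 (adjusted p = 0.0593). Sign changes under the block were -0.01 for Xbp1 and -0.05 for Syvn1 in genotype under arsenite, -0.02 for Syvn1 in averaged genotype and 0.02 for Edem1 in averaged arsenite.

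The other sign changes were all in uncalled values. With equal medians Syvn1 was at -0.02 and 0.00 for genotype under vehicle and arsenite, -0.01 for averaged genotype and 0.01 for the interaction, and Dnajb9 at 0.02 for the interaction. With array weights Syvn1 was at 0.00 for genotype under arsenite and Edem1 at 0.00 for averaged arsenite, as Edem1 was with averaged probe sets. With an array left out, arsenite in wildtype neurons ran from -0.05 to 0.09 for Xbp1 and -0.09 to 0.07 for Sdf2l1. Arsenite in ATF4-deficient neurons ran from -0.29 to 0.12 for Herpud1, -0.46 to 0.01 for Syvn1, -0.08 to 0.27 for Dnajb9, -0.44 to 0.03 for Sdf2l1 and -0.17 to 0.11 for Creld2. Genotype under vehicle ran from -0.26 to 0.09 for Herpud1 and -0.12 to 0.15 for Syvn1, and under arsenite from -0.02 to 0.16 for Xbp1 and -0.23 to 0.24 for Syvn1. The interaction ran from -0.12 to 0.04 for Ern1, -0.24 to 0.22 for Syvn1, -0.18 to 0.17 for Dnajb9 and -0.43 to 0.04 for Sdf2l1. Averaged genotype ran from -0.07 to 0.02 for Sel1l and -0.11 to 0.12 for Syvn1, and averaged arsenite from -0.08 to 0.07 for Edem1 and -0.23 to 0.01 for Sdf2l1.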
